A study of Mus musculus with 8 samples.

Results

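The 8 genes described here encode the main parts of the MHC class I presentation pathway in reprogramming mouse embryonic fibroblasts (MEFs). They are the heavy chains *H2-K1*, *H2-D1* and *H2-T23*, the light chain *B2m*, the peptide loading genes *Tap1*, *Tap2* and *Tapbp*, and the regulator *Nlrc5*. They were chosen by gene symbol from the 18990 genes of the deposited table. All 8 were among the 13866 genes whose mean reached 1 CPM, the genes that were tested. CPM are reads scaled by the normalised library size behind the deposited values, which was 0.951 to 1.05 times the library total.

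MHC class I molecules carry short peptides from inside the cell to its surface, where cytotoxic T cells inspect them. Proteasomes cut proteins into peptides, the TAP transporter pumps these into the endoplasmic reticulum, and a loading complex built around tapasin places them in the groove of a heavy chain that is paired with beta-2 microglobulin. Fibroblasts use this pathway at a modest level that interferons can raise, and pluripotent cells are known for low class I levels.

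The cells were primary wild-type MEFs of the C57/BL6 strain (BL6 in the labels) at passage 2, transduced with lentiviruses that carry rtTA and the doxycycline-inducible tet-STEMCCA cassette, which encodes OCT4, SOX2, KLF4 and MYC. All groups had the same medium, with doxycycline at 2 µg/mL, LIF, ascorbic acid at 50 µg/mL, the GSK3 inhibitor chiron at 3 µM and an ALK5 inhibitor at 0.25 µM. They differed in the siRNA pool, which was transfected at 40 nM against *Ncor1* (*siNcor1*), a corepressor gene, or against *Oct4* (*siOct4*, gene symbol *Pou5f1*), and in the day of harvest. Bulk RNA was sequenced after ribosomal RNA depletion in 4 groups of 2 libraries, *siNcor1* at day 3, *siOct4* at day 3, *siNcor1* at day 6 and *siOct4* at day 6. Libraries of the non-targeting control are not used here, so values are compared only between the knockdowns and between the days. The cassette itself expresses *Oct4*, and reads of *Pou5f1* from the cassette and from the chromosome cannot be told apart in this table.

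The libraries held between 7735742 and 16445192 reads on genes, with the second day 3 *siOct4*-labelled library the shallowest. A single gene, the non-coding *Gm26917*, took 15.5% to 16.6% of the reads at day 3. At day 6 it took 21.7% and 20.3% in *siNcor1* and 29.1% and 23.9% in the *siOct4*-labelled libraries. *Ncor1* stood at 7.08 and 7.20 log2-cpm in *siNcor1* and at 7.82 and 7.94 in the *siOct4*-labelled libraries at day 3, a difference of 0.74 (limma, adjusted p = 0.0139). Its day 6 values were 7.26 and 7.28 against 7.33 and 7.13, a difference of −0.042 (limma, adjusted p = 0.815). *Pou5f1* at day 3 stood at 7.63 and 7.68 log2-cpm in *siNcor1* and at 7.53 and 7.62 in the *siOct4*-labelled libraries, a difference of −0.076 (limma, adjusted p = 0.941). Its day 6 values were 7.55 and 7.32 against 9.45 and 8.97, 1.78 higher under the *siOct4* label (limma, adjusted p = 0.000109). At day 6 *Pou5f1* therefore goes against the label, and these samples are called the *siOct4*-labelled libraries throughout. The study describes this knockdown as early and short-lived against strong expression from the cassette, and earlier days are not analysed here. Every direction between the knockdowns rests on that label. The 8 fibroblast markers summed to between 2416 and 10274 CPM. Of the leukocyte markers, the defining genes *Ptprc*, *Itgam* and *Cd3e* are not analysed here and the other 4 summed to between 2.09 and 6.46 CPM.

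Most of the genes lie together in the MHC region of chromosome 17. *H2-K1* (ENSMUSG00000061232) lies at chr17:33996017-34000347 of mm10, *H2-D1* (ENSMUSG00000073411) at chr17:35262730-35267499 and *H2-T23* (ENSMUSG00000067212) at chr17:36029773-36032855. *Tapbp* (ENSMUSG00000024308) at chr17:33915899-33929292, *Tap1* (ENSMUSG00000037321) at chr17:34187553-34197225 and *Tap2* (ENSMUSG00000024339) at chr17:34203527-34216321 lie in the same region. *B2m* (ENSMUSG00000060802) is at chr2:122147686-122153083 and *Nlrc5* (ENSMUSG00000074151) at chr8:94434356-94527272. All 8 are annotated as protein-coding, and the table gives each gene 1 value.

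Promoters are shown for *H2-K1*, the gene with the largest change, and for its partner *B2m*, which did not pass the test between the days. The sequences are RefSeq's on GRCm38.p6 and hold the 180 bases before the annotated start, read 5′ to 3′ on the gene's strand. Capitals mark letters that match the NF-kappaB motif (GGG, any 2 bases, TT, any base, then CC), the core of an interferon-stimulated response element (GAAA, any 2 bases, then GAAA), GAANNGAAA (the same core with a base less, searched after the promoters had been read), TGACG (the core of a CRE) or CCAAT, on either strand. The *H2-K1* window is chr17:34000348-34000527 on the minus strand, from the first of 2 RefSeq entries, and the *B2m* window is chr2:122147507-122147686 on the plus strand.
H2-K1: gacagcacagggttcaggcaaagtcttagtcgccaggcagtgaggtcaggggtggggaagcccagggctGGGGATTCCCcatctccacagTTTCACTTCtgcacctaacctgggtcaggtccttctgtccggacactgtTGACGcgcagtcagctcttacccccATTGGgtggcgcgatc
B2m: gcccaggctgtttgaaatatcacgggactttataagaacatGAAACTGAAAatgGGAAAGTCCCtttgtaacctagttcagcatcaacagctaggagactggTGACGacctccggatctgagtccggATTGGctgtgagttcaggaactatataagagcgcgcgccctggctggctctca
In *H2-K1* the NF-kappaB letters are followed by the shorter interferon element, then TGACG and CCAAT. In *B2m* the longer interferon element comes first and the NF-kappaB letters follow it on the other strand, with no overlap between them, and TGACG and CCAAT come next as in *H2-K1*. The *H2-D1* window runs in parallel to that of *H2-K1*, with 166 of 190 bases (87.4%) identical at an offset of 60 bases between the annotated starts, and it holds the same matches in the same order, with a further CCAAT after them.

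Of the 8 genes, 6 have a RefSeq promoter entry (*H2-K1*, *H2-D1*, *H2-T23*, *B2m*, *Tap1* and *Tapbp*), and the 250 bases before the start were searched in each. The NF-kappaB letters occurred in 3 of the 6 (*H2-K1*, *H2-D1*, *B2m*) and in 4.004% of 27025 RefSeq promoters. The longer interferon element occurred in 2 of the 6 (*H2-T23*, *B2m*) and in 3.04% of all promoters, and GAANNGAAA in another 2 (*H2-K1*, *H2-D1*) and in 6.34% of all. TGACG was found in 4 of the 6 (*H2-K1*, *H2-D1*, *B2m*, *Tap1*) against 17.9% of all promoters, and CCAAT in 6 of 6 against 34.5%. Such matches describe letters and are not shown to be bound.

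Per kilobase of exon, *B2m* was the highest of the 8 genes in every group, at 144 ± 29.1 CPM per kb in *siNcor1* and 173 ± 17.1 in the *siOct4*-labelled libraries at day 3, and at 181 ± 7.51 and 137 ± 17.9 at day 6 (SD, n = 2 here and below). *H2-D1* came next, at 16.8 ± 0.945 and 17.5 ± 0.00124 CPM per kb at day 3 and 28.4 ± 3.90 and 28.2 ± 0.767 at day 6. *Tapbp* followed in both day 3 groups, at 9.46 ± 0.244 and 10.8 ± 0.323 CPM per kb, and *H2-K1* took that place in both day 6 groups, at 16.7 ± 0.979 and 19.9 ± 2.71. *H2-K1* and *Tapbp* thus exchanged places between the days. *Tap1* came after them in all groups, with group means of 3.46 to 4.69 CPM per kb. *Tap2* (group means 1.13 to 1.37 CPM per kb) was above *H2-T23* in *siNcor1* at day 3 and below it in the other groups, where *H2-T23* had means of 1.68 to 2.09. *Nlrc5* was the lowest, with group means of 0.617 to 1.24 CPM per kb. Neighbours in this order did not overlap within a group, except for *H2-K1* (4.03 to 6.06 CPM per kb) and *Tap1* (4.13 to 4.19) in *siNcor1* at day 3. Each group has only 2 libraries, so this describes the libraries and is no test.

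**Figure D1:**
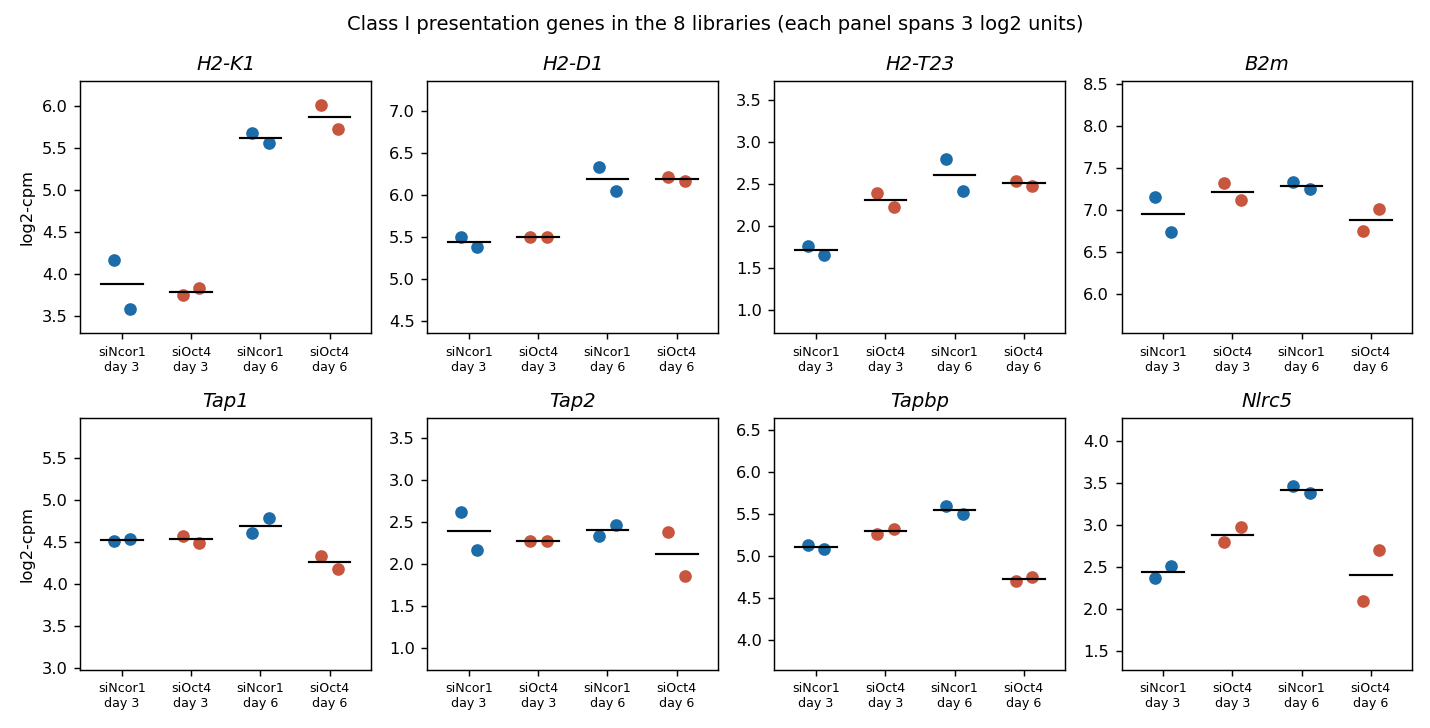
Levels of the 8 genes in log2-cpm (vertical axis, each panel spanning 3 log2 units) in the 4 groups, with *siNcor1* in blue and the *siOct4*-labelled libraries in red. Points are libraries and bars are group means of 2 libraries. *H2-K1* and *H2-D1* are higher at day 6 in both knockdowns, while *Tapbp* and *Nlrc5* at day 6 are high in *siNcor1* and low in the *siOct4*-labelled libraries.

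The largest differences among the 8 genes were those of the heavy chain *H2-K1* between the days. From day 3 to day 6, *H2-K1* rose 3.34-fold in *siNcor1* and 4.23-fold in the *siOct4*-labelled libraries, and *H2-D1* rose 1.68-fold and 1.61-fold. In *siNcor1* 5 of the 8 genes rose between the days (*H2-K1*, *H2-D1*, *H2-T23*, *Tapbp* and *Nlrc5*) and 0 fell, against 13.8% of all genes tested that were called higher and 20.9% called lower, and the median difference was 0.60 log2 against −0.068 over all genes. Without the first day 6 library of *siNcor1* 2 genes were called, and without its second day 3 library 3. In the *siOct4*-labelled libraries, 2 rose (*H2-K1* and *H2-D1*) and 1 fell (*Tapbp*), against 22.2% called higher and 30.5% called lower among all genes, with a median of −0.21 against −0.079, and without the second *siOct4*-labelled library of day 6 the calls were 5. Calls are limma tests at an adjusted p under 0.05 over all 13866 genes. In bulk RNA, a change in the share of cells of a type and a change in RNA per cell cannot be told apart.

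Between the knockdowns at day 3, 0 of the 8 genes were called by limma, against 1.07% of all genes tested. At an unadjusted p under 0.05 limma gave 1 gene, *H2-T23*, and voom on the recovered reads called 0. At day 6, *Tapbp*, *Nlrc5* and *Tap1* were lower in the *siOct4*-labelled libraries, which is 3 of 8 genes lower and 0 higher, against 18.6% and 12.1% of all genes tested, with a median difference of −0.34 against −0.025. A test of whether the knockdown difference changed between the days called 3 of 8 genes, *Nlrc5*, *Tapbp* and *B2m*, all towards lower in the *siOct4*-labelled libraries, against 12.9% of all genes in that direction. The comparisons share libraries, so they are not independent of each other. The study calls the libraries of a group biological replicates. Nothing in the sources used here says whether they came from separate animals, so p-values measure the spread between these libraries.

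**Figure D2:**
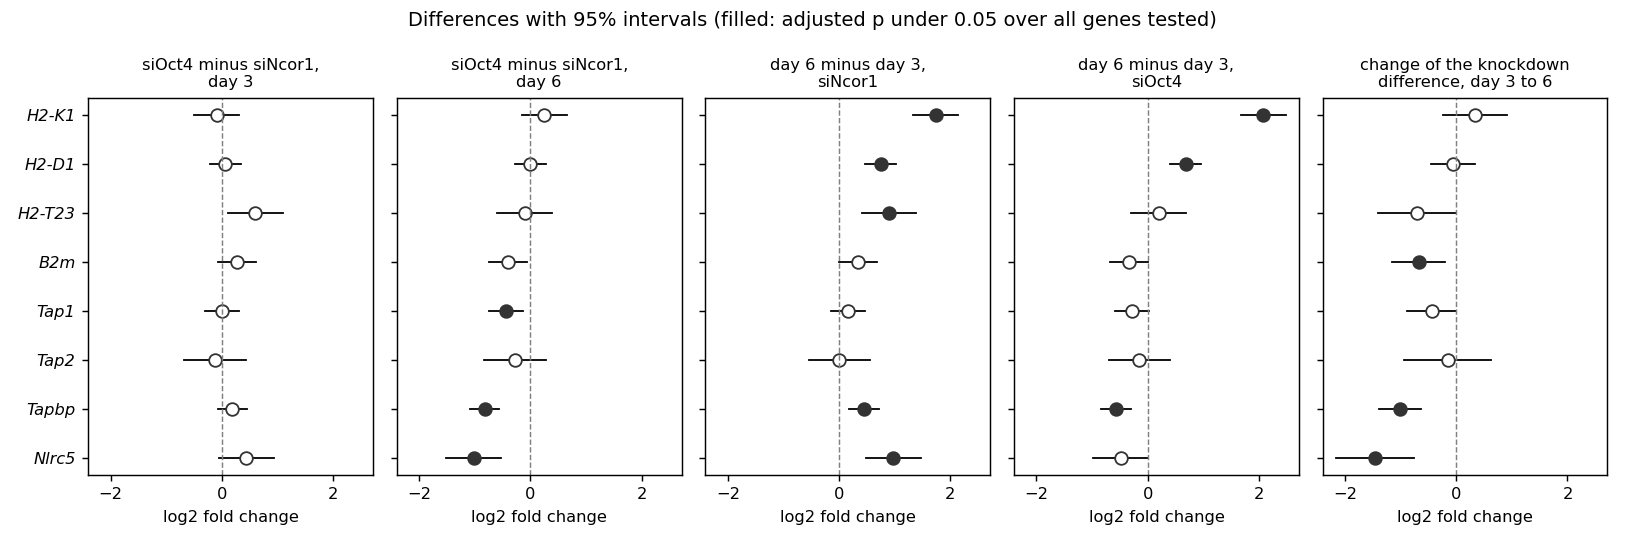
Log2 fold changes (horizontal axis) of the 8 genes in the 5 comparisons, with 95% intervals from limma. Filled points have an adjusted p under 0.05 over all genes tested. *H2-K1* lies at 1.74 and 2.08 between the days, while *Tapbp* lies at 0.45 between the days in *siNcor1* and at −0.57 in the *siOct4*-labelled libraries.

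*H2-K1* encodes the classical heavy chain H-2K. It stood at 4.17 and 3.58 log2-cpm in *siNcor1* and 3.75 and 3.83 in the *siOct4*-labelled libraries at day 3, and at 5.68 and 5.56, and 6.01 and 5.73, at day 6. All 4 day 6 libraries lay above all 4 day 3 libraries, and only the knockdowns at day 3 overlapped. In reads, the day 3 libraries held 111 to 288 and the day 6 libraries 558 to 623. The day difference was 1.74 (SE 0.19) in *siNcor1* (limma, adjusted p = 6.97e-05) and 2.08 (SE 0.19) in the *siOct4*-labelled libraries (limma, adjusted p = 5.03e-06). The change of the knockdown difference was 0.34, with a 95% interval of −0.23 to 0.91 (limma, adjusted p = 0.383), so the day differences of the knockdowns were not shown to differ.

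*H2-D1*, the other classical heavy chain of this strain, encodes H-2D. Its levels at day 3 were 5.50 and 5.38 log2-cpm in *siNcor1* and 5.50 in both *siOct4*-labelled libraries. At day 6 they were 6.33 and 6.05 in *siNcor1* and 6.22 and 6.16 in the *siOct4*-labelled libraries. As for *H2-K1*, every day 6 library was above every day 3 library. The difference between the days was 0.75 (SE 0.13) in *siNcor1* (limma, adjusted p = 0.00118) and 0.69 (SE 0.13) in the *siOct4*-labelled libraries (limma, adjusted p = 0.000857). Between the knockdowns, the difference at day 6 was −0.0029, with an interval of −0.28 to 0.28 (limma, adjusted p = 0.988).

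These heavy chains resemble each other and other members of their family, and reads in shared stretches could be counted for either. Of all 43-base windows (the read length) in annotated *H2-K1* transcripts, 13.1% also occur in transcripts of another gene, 6.12% in those of *H2-D1*, and 17.2% of the *H2-D1* windows are shared. The reads of *H2-K1*, *H2-D1*, *H2-Q4*, *H2-Q6* and *H2-Q7* were also summed to 1 value, a choice made after the data were seen. *H2-Q10*, which shares 6.39% of the *H2-K1* windows, and *H2-Q1*, which shares 6.68% of the *H2-D1* windows, are not in this sum. Its difference between the days was 1.08 (SE 0.13) in *siNcor1* (limma, adjusted p = 0.000154) and 1.15 (SE 0.13) in the *siOct4*-labelled libraries (limma, adjusted p = 2.91e-05). This sum, which does not depend on how shared reads were split among the summed genes, thus rose in both knockdowns.

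*H2-T23* encodes Qa-1, a non-classical heavy chain recognised by receptors of natural killer cells. It held 36 to 83 reads a library, at 1.77 and 1.66 log2-cpm in *siNcor1* and 2.40 and 2.23 in the *siOct4*-labelled libraries at day 3. At day 6 it stood at 2.81 and 2.42 and at 2.55 and 2.48. The *siNcor1* libraries of day 3 were the lowest, and the other groups lay within 2.23 to 2.81. In *siNcor1* it rose by 0.90 (SE 0.23) between the days (limma, adjusted p = 0.00962), a call that was lost without the second day 3 library of *siNcor1* (0.84, limma, adjusted p = 0.0717) and without its first day 6 library (0.70, limma, adjusted p = 0.110). In the *siOct4*-labelled libraries the difference was 0.20 (limma, adjusted p = 0.489), and the change of the knockdown difference was −0.70 (limma, adjusted p = 0.138). At day 3 the knockdown difference was 0.60, with an interval of 0.11 to 1.09 (limma, adjusted p = 0.313). Of its windows, 18.0% are shared with other genes, chiefly the pseudogene *H2-T-ps* (8.13%).

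*B2m* encodes beta-2 microglobulin, the light chain without which classical heavy chains do not reach the surface. At day 3 it stood at 7.15 and 6.74 log2-cpm in *siNcor1* and at 7.32 and 7.11 in the *siOct4*-labelled libraries. At day 6 it stood at 7.33 and 7.24 in *siNcor1* and at 6.75 and 7.01 in the *siOct4*-labelled libraries. The knockdowns overlapped at day 3 and were apart at day 6, with *siNcor1* the higher. No single comparison passed the test, with differences of 0.27 between the knockdowns at day 3 (limma, adjusted p = 0.621), −0.40 at day 6 (limma, adjusted p = 0.0652), 0.34 between the days in *siNcor1* (limma, adjusted p = 0.105) and −0.33 in the *siOct4*-labelled libraries (limma, adjusted p = 0.0870). The change of the knockdown difference did, at −0.68 (SE 0.22; limma, adjusted p = 0.0462). That call was lost in 6 of the 8 fits that left out a library. It was lost without either library of *siNcor1* day 6 (−0.63 and −0.72), without either *siOct4*-labelled library of day 3 (−0.57 and −0.78), without the second *siNcor1* library of day 3 (−0.47; limma, adjusted p = 0.205) and without the first *siOct4*-labelled library of day 6 (−0.54). Without the second *siOct4*-labelled library of day 6, *B2m* passed at day 6 between the knockdowns (−0.54; limma, adjusted p = 0.0244) and between the days (−0.47; limma, adjusted p = 0.0296), and without the first *siNcor1* library of day 3 it passed between the days in *siNcor1* (0.55; limma, adjusted p = 0.0401).

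*Tap1* and *Tap2* encode the pair of subunits of the peptide transporter. *Tap1* at day 3 stood at 4.51 and 4.53 log2-cpm in *siNcor1* and 4.57 and 4.49 in the *siOct4*-labelled libraries. At day 6 it stood at 4.60 and 4.77 and at 4.33 and 4.17. Its day 3 groups overlapped, its day 6 groups did not overlap, and the difference was −0.44 (SE 0.14; limma, adjusted p = 0.0357). This call is close to the threshold: leaving out the second *siNcor1* library of day 6 gave −0.35 (limma, adjusted p = 0.250), and it was lost in 7 of the 8 fits that left out a library, the exception being the first *siOct4*-labelled library of day 6. Without any 1 of the 4 day 3 libraries, which do not enter the difference itself, the value stayed at −0.44 (limma, adjusted p = 0.0538 to 0.0541), and without the first *siNcor1* library of day 6 or the second *siOct4*-labelled library of day 6 it was −0.52 (limma, adjusted p = 0.0705) or −0.36 (limma, adjusted p = 0.0935). Between the days *Tap1* differed by 0.17 in *siNcor1* (limma, adjusted p = 0.385) and by −0.28 in the *siOct4*-labelled libraries (limma, adjusted p = 0.118). Exons of *Tap1* overlap those of *Psmb9* on the other strand, which held 1 to 11 reads.

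*Tap2* ran from 1.85 to 2.62 log2-cpm and from 37 to 97 reads, and its groups overlapped in all 4 comparisons. Its differences lay between −0.28 and 0.0026 in the 4 comparisons of groups, with limma adjusted p from 0.433 to 0.994. At this depth the interval of the day 6 knockdown difference, −0.83 to 0.27, was wide enough to hold the *Tap1* value. In the annotation, exons of *Tap2* overlap those of *Gm15821* and *Gm20496* on the other strand, and whether counting used strand is not given in the sources used here.

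*Tapbp* encodes tapasin, which bridges the transporter and the heavy chain. At day 3 it stood at 5.13 and 5.08 log2-cpm in *siNcor1* and at 5.27 and 5.33 in the *siOct4*-labelled libraries. At day 6 it was at 5.596 and 5.51 in *siNcor1* and at 4.70 and 4.76 in the *siOct4*-labelled libraries. It was thus the lowest in the *siOct4*-labelled libraries at day 6 and the highest in *siNcor1* at day 6, and the 4 groups did not overlap. At day 6 it was 1.77-fold lower in the *siOct4*-labelled libraries (−0.82, SE 0.12; limma, adjusted p = 0.000870). Between the days it rose by 0.45 (SE 0.12) in *siNcor1* (limma, adjusted p = 0.0146) and fell by 0.57 (SE 0.12) in the *siOct4*-labelled libraries (limma, adjusted p = 0.00215). The change of the knockdown difference was −1.01 (SE 0.17; limma, adjusted p = 0.00255).

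The rise of *Tapbp* in *siNcor1* was lost when any 1 of the 4 *siNcor1* libraries was left out. It was 0.47 and 0.42 without the first and the second library of day 3 (limma, adjusted p = 0.0513 and 0.0893), and 0.40 and 0.49 without the first and the second of day 6 (limma, adjusted p = 0.119 and 0.0592). The lower level at day 6, the fall in the *siOct4*-labelled libraries and the change of the difference passed in all 8 fits that left out a library. *Tapbp* shares exon bases with *Zbtb22* on the same strand, which held 174 to 413 reads, and 21.0% of its 43-base windows also occur in the antisense gene *Gm19412*.

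*Nlrc5* encodes a NOD-like receptor protein that acts in the nucleus as the transactivator of class I genes. At day 3 it stood at 2.36 and 2.51 log2-cpm in *siNcor1* and at 2.79 and 2.97 in the *siOct4*-labelled libraries, and at day 6 at 3.45 and 3.38 and at 2.09 and 2.70. The *siNcor1* libraries of day 6 were the highest of all. Those labelled *siOct4* at day 6 held 39 and 75 reads, and their range enclosed both *siNcor1* libraries of day 3. At day 6 *Nlrc5* was 2.03-fold lower in the *siOct4*-labelled libraries (−1.02, SE 0.23; limma, adjusted p = 0.00690), and the change of the knockdown difference was −1.46 (SE 0.32; limma, adjusted p = 0.00972). In *siNcor1* it rose 1.97-fold between the days (0.98, SE 0.23; limma, adjusted p = 0.00667), and in the *siOct4*-labelled libraries the difference was −0.49 (limma, adjusted p = 0.0940). The rise in *siNcor1* was lost without its first day 3 library (0.90; limma, adjusted p = 0.0514) and without its first day 6 library (0.94; limma, adjusted p = 0.0524). The difference in the *siOct4*-labelled libraries passed without the second of day 6 (−0.79; limma, adjusted p = 0.0103). The day 6 difference and its change between the days passed in all 8 fits that left out a library, from −1.33 to −0.71 and from −1.77 to −1.16. Exons of *Nlrc5* overlap those of *9330175E14Rik* on the other strand, which held 0 to 9 reads.

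Between the days the groups of 7 of the 8 genes did not overlap in *siNcor1*, all higher at day 6, against 31.4% of all genes tested apart in that direction, and *Tap2* overlapped. In the *siOct4*-labelled libraries 3 genes were apart and higher (*H2-K1*, *H2-D1* and *H2-T23*) and 4 apart and lower (*B2m*, *Tap1*, *Tapbp* and *Nlrc5*), against 32.7% and 42.1% of all genes. Between the knockdowns, 4 genes (*H2-D1*, *H2-T23*, *Tapbp* and *Nlrc5*) were apart and higher in the *siOct4*-labelled libraries at day 3 (20.7% of all genes), and at day 6 *H2-K1* was apart and higher (29.9%) while *B2m*, *Tap1*, *Tapbp* and *Nlrc5* were apart and lower (34.8%).

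Ratios of reads within a library do not depend on how libraries are scaled. The ratio of *H2-K1* to *B2m* reads was 0.126 and 0.111 in *siNcor1* and 0.0834 and 0.102 in the *siOct4*-labelled libraries at day 3, and 0.318 and 0.310 and then 0.597 and 0.410 at day 6. The 4 groups did not overlap, and the day 6 libraries were all above those of day 3. For *H2-D1* to *B2m*, the day 3 libraries gave 0.284 to 0.390 and the day 6 libraries 0.437 to 0.691, again without overlap of the days. *H2-K1* to *H2-D1* went from 0.285 to 0.396 at day 3 to 0.634 to 0.865 at day 6, so the heavy chains changed unequally. The ratio of *Nlrc5* to *H2-K1* reads was 0.281 and 0.471 in *siNcor1* and 0.510 and 0.550 in the *siOct4*-labelled libraries at day 3. At day 6 it was 0.212 and 0.219 in *siNcor1* and 0.0643 and 0.120 in the *siOct4*-labelled libraries, the lowest of the 4 groups. *Tap1* to *Tap2* stayed within 3.77 to 5.28 in all libraries, and *Tapbp* to *Tap1* was 2.00 and 1.67 in *siNcor1* and 1.30 and 1.502 in the *siOct4*-labelled libraries at day 6.

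**Figure D3:**
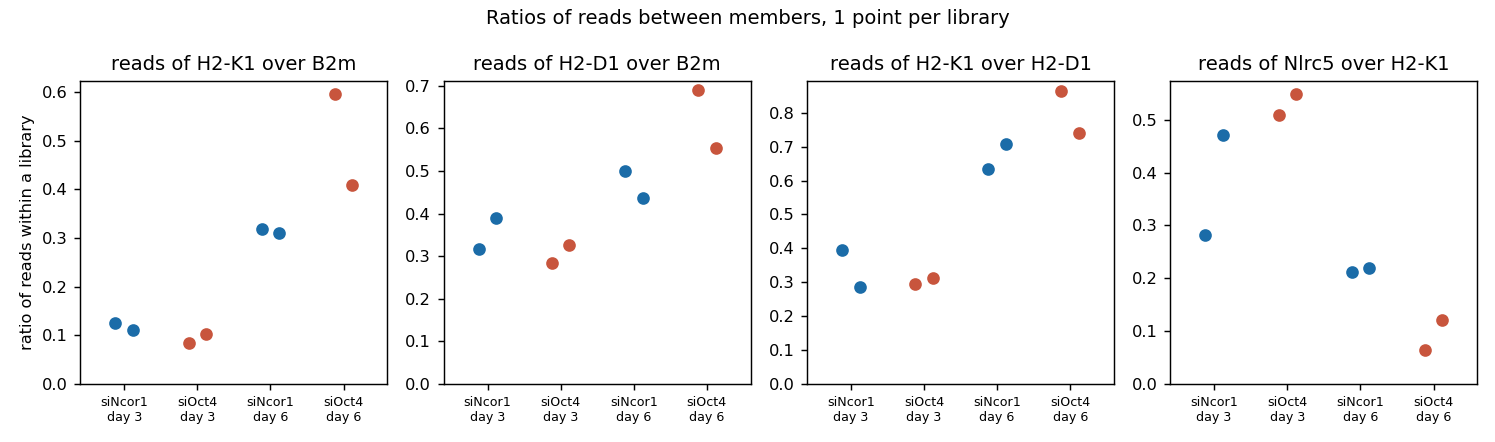
Ratios of reads between pairs of the 8 genes within each library (vertical axis, from 0), with *siNcor1* in blue and the *siOct4*-labelled libraries in red, 1 point per library. *H2-K1* and *H2-D1* are higher against *B2m* at day 6, and *Nlrc5* over *H2-K1* is lowest, at 0.0643 and 0.120, in the *siOct4*-labelled libraries of day 6.

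Other genes of the pathway were followed in 5 lists. Beyond the 3 largest of a list and comparison, and for *siNcor1* between the days, genes are named because their list had few calls, after their values were seen. For comparison, 18.6% of all genes tested were lower and 12.1% higher at day 6 (median −0.025), 30.5% were lower and 22.2% higher between the days in the *siOct4*-labelled libraries (median −0.079), and 20.9% were lower and 13.8% higher in *siNcor1* (median −0.068).

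Of the 5 genes for peptide loading and trimming, 2 were lower in the *siOct4*-labelled libraries at day 6 and 0 higher, with a median of −0.44. These were *Erap1* (−1.05, SE 0.21; limma, adjusted p = 0.00357), the aminopeptidase that trims peptides, and *Calr* (−0.50, SE 0.13; limma, adjusted p = 0.0129), the chaperone calreticulin. Between the days, 4 of the 5 fell in the *siOct4*-labelled libraries (median −0.85), led by *Erap1* (−1.36; limma, adjusted p = 0.000215), *Pdia3* (−1.02; limma, adjusted p = 0.000643), a disulphide isomerase of the loading complex, and *Calr* (−0.85; limma, adjusted p = 0.000203). The other was the chaperone *Canx* (−0.76; limma, adjusted p = 0.00106). In *siNcor1* *Pdia3* and *Canx* fell between the days (median −0.50), and 0 passed without any 1 of the 4 *siNcor1* libraries. At day 6, 1 passed without either *siNcor1* library of that day and 4 without the second *siOct4*-labelled library.

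Of the 5 genes of the immunoproteasome and its activator PA28, 4 were tested, while *Psmb9* held 1 to 11 reads. At day 6 the catalytic subunit gene *Psmb10* was higher in the *siOct4*-labelled libraries (1.21, SE 0.20; limma, adjusted p = 0.00138), and 3 were lower (median of the 4 genes −0.58). *Psmb8*, another catalytic subunit, was at −0.92 (limma, adjusted p = 0.0376), and the PA28 subunits *Psme1* and *Psme2* were at −0.60 (limma, adjusted p = 0.0200) and −0.55 (limma, adjusted p = 0.0154). Between the days *Psmb10* rose by 1.35 in the *siOct4*-labelled libraries (limma, adjusted p = 0.000148) and *Psme2* fell by 0.40 (limma, adjusted p = 0.0396), with a median of −0.18. In *siNcor1* limma called 0 of the 4 between the days (median 0.30), with 2 (*Psme1* and *Psme2*) at an unadjusted p under 0.05, voom called 0, and quantile normalisation and totals without *Gm26917* each called 2. Leaving out either *siNcor1* library of day 6 or the first *siOct4*-labelled one left 1 call at day 6. Between the days 1 call was left in the *siOct4*-labelled libraries without any 1 library but the second *siOct4*-labelled one of day 6, and in *siNcor1* 2 were called without either *siOct4*-labelled library of day 6.

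Among 12 transcription factors that act on class I promoters, 5 were lower in the *siOct4*-labelled libraries at day 6 and 0 higher (median −0.32). The interferon-signalling factors *Stat2* (−0.82, SE 0.18; limma, adjusted p = 0.00572) and *Irf1* (−0.79, SE 0.15; limma, adjusted p = 0.00276) and the RFX subunit *Rfx5* (−0.59, SE 0.18; limma, adjusted p = 0.0272) had the largest differences of the 12, and the others were *Irf9* and *Nfkb1*. Between the days in the *siOct4*-labelled libraries, 4 fell and 2 rose (median −0.20), with *Irf2* at −0.73 (limma, adjusted p = 0.00279), the NF-kappaB subunit *Nfkb1* at −0.71 (limma, adjusted p = 0.000436) and *Rfxank*, another subunit of the RFX complex, at 0.86 (limma, adjusted p = 0.00750). The others that fell were *Rela* and *Irf1*, and the other that rose was *Nfyb*. In *siNcor1* *Rfxank* and *Irf9* rose and 0 fell (median 0.086). At day 6, 1 of the 12 passed without the first *siNcor1* library of that day and 2 without the second. Between the days, 3 passed in the *siOct4*-labelled libraries without the second of day 3, and in *siNcor1* 0 without its first of day 3 or its second of day 6 and 1 without its first of day 6.

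Of 7 interferon receptor and kinase genes, 4 were lower in the *siOct4*-labelled libraries at day 6 and 0 higher (median −0.54). They included the kinases *Jak2* (−1.03, SE 0.16; limma, adjusted p = 0.00104) and *Jak1* (−0.84, SE 0.15; limma, adjusted p = 0.00232) and the receptor chain *Ifnar1* (−0.56, SE 0.14; limma, adjusted p = 0.0115), and the other was *Ifngr2* (−0.54; limma, adjusted p = 0.0238). Between the days 6 of the 7 fell in the *siOct4*-labelled libraries (median −0.87), with *Jak1* at −1.76 (limma, adjusted p = 3.88e-06), *Jak2* at −1.61 (limma, adjusted p = 9.64e-06) and *Ifngr2* at −1.001 (limma, adjusted p = 0.000279). In *siNcor1* *Jak1* and *Jak2* fell (median −0.24). Without the second *siNcor1* library of day 6, 2 of the 7 passed at day 6.

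Of 16 other class I and class I-like heavy chain genes, 9 were tested, and most held few reads. At day 6, 2 were lower in the *siOct4*-labelled libraries and 0 higher (median −0.45), namely *H2-M3* (−1.11; 6 to 23 reads; limma, adjusted p = 0.0317) and *Mr1* (−0.92; 24 to 83 reads; limma, adjusted p = 0.0443). Between the days in the *siOct4*-labelled libraries, 2 rose and 2 fell (median 0.50). The pseudogene *H2-T-ps*, at 2 to 30 reads, had the largest value (2.54; limma, adjusted p = 0.000197), and *H2-T24* (−1.34; limma, adjusted p = 0.00111) and *H2-T22* (−0.93; limma, adjusted p = 0.000762) fell, so the direction of *H2-K1* and *H2-D1* was not that of all heavy chains. *Fcgrt*, which encodes the neonatal Fc receptor, was the other that rose. In *siNcor1* *Mr1*, *Fcgrt* and *Hfe* rose and *H2-T24* fell (median 0.60). At day 6, 0 passed without either *siNcor1* library or without the first *siOct4*-labelled library of that day, 1 without either *siNcor1* library of day 3, and 4 without the second *siOct4*-labelled library of day 6. In *siNcor1*, 1 passed without the second of day 3 or the first of day 6, and 2 without the first of day 3.

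Between the knockdowns at day 3 limma and voom each called 0 genes in all 5 lists. At an unadjusted p under 0.05 limma gave 1 of the receptors and kinases (*Ifngr2*, difference 0.63, adjusted p = 0.0943) and 2 of the other heavy chains (*H2-T22*, 0.64, adjusted p = 0.119, and *H2-T-ps*, −1.24, adjusted p = 0.188). Without either *siOct4*-labelled library of day 6, 1 gene of each of these lists was called at day 3.

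**Figure D4:**
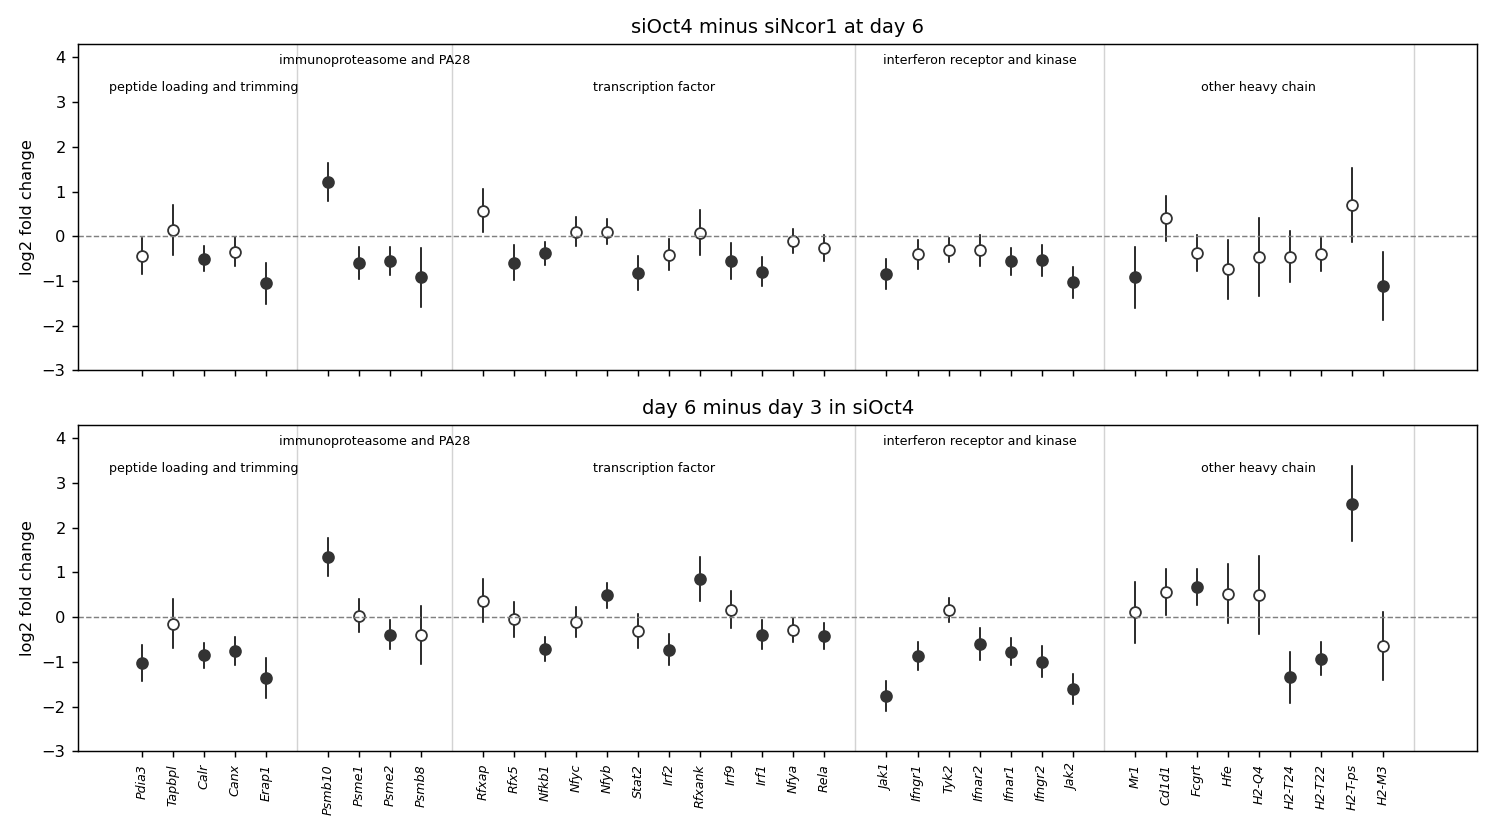
Log2 fold changes (vertical axis) with 95% intervals from limma for the tested genes of the 5 pathway lists, at day 6 between the knockdowns (top) and between the days in the *siOct4*-labelled libraries (bottom). Filled points have an adjusted p under 0.05 over all genes tested. *Jak1*, *Jak2* and *Erap1* lie below 0 in both panels, and *Psmb10* lies above 0 in both.

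Marker genes of cell types also differed between these groups. The 8 fibroblast markers summed to 6178 to 6298 CPM in *siNcor1* and 8722 to 10274 CPM in the *siOct4*-labelled libraries at day 3, and to 4329 to 4689 and 2416 to 2522 CPM at day 6. Most of these sums came from the collagen genes *Col1a1*, *Col1a2* and *Col3a1*. In *siNcor1* the sum was lower at day 6, while the median difference of the 8 markers between the days was 0.35. At day 6, 6 of the 8 were lower in the *siOct4*-labelled libraries and 0 higher, as were *Tapbp*, *Nlrc5* and *Tap1*, and 7 of the 8 had a change of the knockdown difference towards lower, as had *Tapbp*, *Nlrc5* and *B2m*. Between the days in *siNcor1*, 4 of the 8 rose (*Dcn*, *Thy1*, *Twist2* and *Col3a1*, from 2.51 to 0.58) and 2 fell (*Col1a1* and *Col1a2*, by 1.15 and 0.60), while *H2-K1*, *H2-D1*, *H2-T23*, *Tapbp* and *Nlrc5* rose. In the *siOct4*-labelled libraries 5 fell and 1 rose (*Dcn*, 1.59), while *Tapbp* fell and *H2-K1* and *H2-D1* rose. The part of these markers in the results was not tested. The 5 pluripotency markers summed to at most 1.30 CPM at day 3, and at day 6 to 61.5 to 71.0 CPM in *siNcor1* and 22.4 to 23.3 CPM in the *siOct4*-labelled libraries, while *H2-K1* and *H2-D1* rose. Their part in the rises was not tested either.

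Markers of other cells were mostly low. The 4 leukocyte markers analysed summed to 2.09 to 3.403 CPM in *siNcor1* and 4.27 to 6.46 CPM in the *siOct4*-labelled libraries at day 3, and to 3.63 to 4.62 and 2.96 to 4.16 CPM at day 6. One of them, *Csf1r*, at 8 to 33 reads, fell by 1.58 between the days in the *siOct4*-labelled libraries (limma, adjusted p = 0.00617), as did *Tapbp*. Its change of the knockdown difference was −1.89 (limma, adjusted p = 0.0364), the same direction as for *Tapbp*, *Nlrc5* and *B2m*, and its part in those results was not tested. *Cd14*, at 12 to 30 reads, was not called in either, at 0.33 (limma, adjusted p = 0.425) and −0.40 (limma, adjusted p = 0.573). *Cd79a* (0 to 7 reads) and *Adgre1* (0 to 6 reads) were too low to be tested. Of the 5 markers of professional antigen-presenting cells, *H2-Aa* and *H2-Ab1* are not analysed here, and the other 3 summed to 1.90 to 6.97 CPM, highest in the *siOct4*-labelled libraries at day 6. Among these, *H2-Eb1*, at 7 to 68 reads, rose by 2.41 between the days in the *siOct4*-labelled libraries (limma, adjusted p = 1.84e-05), as did *H2-K1* and *H2-D1*. Its change of the knockdown difference was 2.27 (limma, adjusted p = 0.00196), the opposite direction to *Tapbp*, *Nlrc5* and *B2m*. At day 3 its knockdown difference was −1.56 (limma, adjusted p = 0.0173). The part of *H2-Eb1* in those results was not tested. *Cd74* (3 to 10 reads) and *Ciita* (3 to 11 reads) were too low to be tested. The 5 endothelial markers summed to 40.8 to 44.4 CPM over the day 3 libraries and to 16.4 to 20.9 CPM over those of day 6. Nearly all of this was *Tek*, at 151 to 745 reads, while *Kdr*, *Pecam1*, *Cdh5* and *Emcn* held at most 18, 9, 5 and 2 reads. Only *Tek* was tested. Its day difference was −1.22 in *siNcor1* (limma, adjusted p = 0.000131) and −1.31 in the *siOct4*-labelled libraries (limma, adjusted p = 2.3e-05). No marker analysed was at 0 in all 8 libraries.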

How the data were processed

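RNA-seq values of 8 libraries, 2 in each of 4 groups set by the labels, were analysed. The authors prepared libraries from 200 ng of ribosome-depleted total RNA, aligned paired reads of 43 bp to mm10 with STAR (2.5.2b in the submitters' processing notes) and deposited log2-cpm values (log2 counts scaled by library size), computed with edgeR (3.20.9). The read counter, its annotation and its strand setting are not given in the sources used here.

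Whole reads were recovered from the deposited log2 values by removing the constant that stands for 0 reads, and 100% of values were whole within 0.1 read. A gene with 3 reads has 0.174 to 0.380 CPM, and read numbers carry counting error. Libraries of a group had chi-square values per degree of freedom of 21.3 between them in the *siOct4*-labelled group of day 6. In the other groups the values were 9.48 to 10.6. All were above counting noise, so no library was treated as a copy of another. Gene positions come from GENCODE M21, to which 18969 of 18990 identifiers were matched. Exon length per gene for CPM per kb is the union of its exons there.

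Genes that averaged 1 CPM or more were tested with limma 3.58.1 in R 4.3.3 (lmFit, and eBayes with a trend), two-sided, with the 4 groups fitted together, 4 residual degrees of freedom and Benjamini-Hochberg adjustment at 0.05 over all 13866 genes. Fold changes are differences of mean deposited log2 values, which understate changes of low genes. Scripts were tested on simulated data. Matplotlib 3.10.9 drew the figures.

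The 8 genes, the lists and the rules were chosen with earlier results of these data known. All 8 genes are named, and 1 gene of the transcription factor list is not reported here. In each list, up to 3 genes past the threshold with the largest change at day 6 between the knockdowns, and up to 3 between the days in the *siOct4*-labelled libraries, are named, and the 5 other genes most correlated with the mean z-score of the 8. The alternatives were a fit without the trend, median centring, quantile normalisation, library totals without *Gm26917* or without normalisation factors, no filter, a floor of 10 CPM on the mean, added pseudocounts of 0.1 and 1 CPM, voom on the recovered reads, a replicate block, separate fits of the groups compared, and leaving out each library. Summing the reads of the heavy chains was added after the data were seen.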

Additional observations from a re-analysis of the deposited data

Results flagged for a closer look

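For 3 of the 8 genes the difference between the knockdowns itself differed between the days by the interaction test. The change from day 3 to day 6 was −1.46 for *Nlrc5* (limma, adjusted p = 0.00972), −1.01 for *Tapbp* (limma, adjusted p = 0.00255) and −0.68 for *B2m* (limma, adjusted p = 0.0462), each towards lower levels in the *siOct4*-labelled libraries at day 6. Over all genes tested, 20.7% had such a call. For *Nlrc5* and *Tapbp* both *siOct4*-labelled libraries were above both *siNcor1* libraries at day 3 and below them at day 6. For *B2m* the day 3 libraries overlapped.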

How the results depend on the processing

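With 2 libraries a group, the least certain calls were 2 near the threshold, *Tap1* at day 6 and the change of the *B2m* difference. Over 777 alternatives to the values of single genes, 721 kept their direction and their side of the threshold, 26 lost a call, 10 gained one and 20 turned direction. Values that passed no test with all libraries, such as all 8 between the knockdowns at day 3, had no call to lose. In many of the 777 alternatives the direction could not turn. A changed trend or filter, or a library left out from outside the groups compared, leaves the value as it was, so only the call could change. The rises of *H2-K1* and *H2-D1* between the days passed in all 20 alternatives in both knockdowns, as did the day 6 difference and the fall of *Tapbp*. *Nlrc5* at day 6 passed in all 19, *Tap1* at day 6 in 10 of 20 (adjusted p up to 0.250) and the change of the *B2m* difference in 11 of 19 (adjusted p up to 0.205), where it was also lost without the trend and without the filter. The causes were not tested.

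Leaving out a library gave 2 to 5 calls among the 8 genes between the days in *siNcor1* (5 with all libraries) and 3 to 5 in the *siOct4*-labelled libraries (3), and 2 to 3 at day 6 (3). A mean of at least 10 CPM gave 3 in *siNcor1*, as only 5 of the 8 genes were then tested. All turned values lay in differences that passed no test. *H2-D1* at day 6 was 0.037 under median centring, 0.051 under quantile normalisation, 0.015 with totals without *Gm26917* and −0.14 to 0.14 without single libraries. *Tap2* between the days in *siNcor1* was −0.22 under quantile normalisation, −0.0024 without normalisation factors and −0.22 to 0.23 without single libraries. *Tap1* at day 3 was −0.033 with totals without *Gm26917*, −0.024 without normalisation factors and −0.034 to 0.052 without single libraries. Without single libraries *H2-K1* at day 3 ran from −0.38 to 0.20, *Tap2* from −0.35 to 0.10 at day 3, from −0.41 to 0.11 between the days in the *siOct4*-labelled libraries and from −0.42 to 0.11 in the change of the difference, *H2-T23* at day 6 from −0.29 to 0.093 and the change of the *H2-D1* difference from −0.21 to 0.073.

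Counts over all genes and lists moved more. Voom on the recovered reads called 158 genes at day 3, 4238 at day 6, 5167 and 7097 between the days and 2854 in the change of the difference. Over all alternatives, genes called at day 3 ran from 3 to 375 (148), at day 6 from 1398 to 4700 (4251), between the days from 2360 to 6071 (4819) in *siNcor1* and 5385 to 7937 (7312) in the *siOct4*-labelled libraries, and in the change of the difference from 1009 to 3667 (2867). At day 6 the lists gave 1 to 4 calls for peptide loading (2), 1 to 4 for the immunoproteasome (4), 1 to 6 for transcription factors (5), 2 to 6 for interferon receptors and kinases (4) and 0 to 4 for other heavy chains (2). Between the days in the *siOct4*-labelled libraries they gave 4, 1 to 2 (2), 3 to 7 (6), 5 to 6 (6) and 2 to 6 (4), and in *siNcor1* 0 to 3 (2), 0 to 2 (0), 0 to 3 (2), 2 to 3 (2) and 1 to 4 (4).

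The sources used here do not say whether same-numbered libraries share more than a number. Their deviations from the group means correlated at −0.0395 to 0.281 between groups. In a fit with a replicate block, 0 and 3 of the 8 genes were called between the knockdowns at day 3 and day 6. Between the days 5 and 3 were called, and in the change of the difference 3, the same numbers as without the block. Over all genes the block gave 222, 4698, 5218, 7570 and 3395 calls, against 148, 4251, 4819, 7312 and 2867 without it.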

Other observations

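Across the 8 libraries the 8 genes did not move as a single unit. Of 28 pairs, 18 had a correlation above 0, with a median of 0.270, and these points share the 4 groups, the library scaling and the depth, so the values are descriptions. The heavy chains were alike, with *H2-K1* and *H2-D1* at 0.975, *H2-D1* and *H2-T23* at 0.824 and *H2-K1* and *H2-T23* at 0.727. *Tap1* and *Tapbp* (0.865), *Tapbp* and *Nlrc5* (0.854), *B2m* and *Tapbp* (0.757) and *B2m* and *Nlrc5* (0.734) were alike in another way. The 12 pairs of a heavy chain with *B2m*, *Tap1*, *Tapbp* or *Nlrc5* ran from −0.24 (*H2-K1* and *Tap1*) to 0.468 (*H2-T23* and *Nlrc5*). Single genes correlated with the mean z-score of the 8 at between 0.371 (*Tap2*) and 0.817 (*Nlrc5*). Each gene is itself part of that mean, which raises these values.

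The other genes whose levels over the 8 libraries were most like that mean score were *Pld3* (0.996), *Capg* (0.991), *Ctsd* (0.985), *Zbtb7b* (0.985) and *Plbd2* (0.983). *Ctsd* encodes cathepsin D, a lysosomal protease, and *Pld3* and *Plbd2* encode lysosomal proteins. They were picked as the highest of all genes tested, so their correlations carry no test.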
